A study of Rattus norvegicus with 6 samples.

Results

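The genes described here are imprinted genes with known roles in fetal growth, that is, genes of which only the copy inherited from 1 parent is active. The rule names the members and uses no measured value, though it was set with earlier results of these data known: *Dlk1*, *Mest*, *Peg3*, *Plagl1*, *Ndn* and *Snrpn*, which are expressed from the paternal copy, *Grb10* and *Cdkn1c*, which are expressed from the maternal copy (*Grb10* in most tissues), and *Gnas*, where the active copy depends on the transcript. Of these 9 genes, 7 could be matched by RefSeq accession to a row of the array and are measured here, out of 26299 features in all (a feature is a gene symbol, or a row that has none). *Peg3* and *Grb10* had no matched row and were not analysed here. RNA was taken from the skeletal muscle (soleus and gastrocnemius together) of 1-day-old male Wistar rats. The lower birth weight group (LBW, n = 3) was drawn from between percentiles 5 and 25 of birth weight. The average birth weight group (ABW, n = 3), whose samples are titled new born control, was given as percentiles 50 to 75 in the protocol and 25 to 75 in the sample labels. Both groups are outbred pups chosen by weight, for which no transgene or treatment is named, and each pup had its own single-colour NimbleGen array. How the pups were spread over litters is not given in the sources used here, so the p-values below measure the spread between these 6 pups.

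Imprinted genes are controlled by DNA methylation that is set in the germ line and differs between the parental copies. Of these 1 is kept silent, which need not be the methylated copy. Paternally expressed genes tend to promote growth of the fetus and maternally expressed genes tend to restrain it, and both kinds include many genes that are highly expressed in growing fetal tissues and turned down after birth. In developing muscle, *Dlk1* and *Mest* are classical fetal transcripts, and *Cdkn1c* marks the exit of myoblasts from the cell cycle. The study compared pups of different size at birth, and the comparison here asks whether the muscle level of these genes differed with birth weight.

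The starts of *Mest* and *Plagl1* are shown because the imprint of these genes is known to lie around a promoter, which need not be the start printed, and those of *Gnas* because this gene has several starts and its array rows did not move alike (below). Each run holds the 250 bases before a start, 5′ to 3′ on the strand of the gene, from RefSeq (rat assembly GRCr8), with each CG pair, the site of DNA methylation, in capitals.
Mest, chr4:60321564-60321813, plus strand: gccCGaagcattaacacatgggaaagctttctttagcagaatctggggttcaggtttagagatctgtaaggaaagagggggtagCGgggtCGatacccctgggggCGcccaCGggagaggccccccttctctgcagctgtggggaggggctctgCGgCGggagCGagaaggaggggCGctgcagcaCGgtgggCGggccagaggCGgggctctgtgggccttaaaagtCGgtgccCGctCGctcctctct
Plagl1, chr1:9297214-9297463, plus strand: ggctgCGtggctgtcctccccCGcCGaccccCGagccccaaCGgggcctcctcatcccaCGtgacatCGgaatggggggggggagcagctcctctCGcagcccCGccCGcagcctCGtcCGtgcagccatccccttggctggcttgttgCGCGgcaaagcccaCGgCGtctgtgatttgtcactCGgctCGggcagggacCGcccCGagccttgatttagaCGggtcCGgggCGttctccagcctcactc
Gnas start A, chr3:183489398-183489647, plus strand: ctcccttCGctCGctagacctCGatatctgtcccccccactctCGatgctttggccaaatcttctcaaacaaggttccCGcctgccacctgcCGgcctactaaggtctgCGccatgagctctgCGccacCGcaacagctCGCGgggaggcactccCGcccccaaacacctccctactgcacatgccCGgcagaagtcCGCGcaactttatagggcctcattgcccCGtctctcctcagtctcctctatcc
Gnas start B, chr3:183502993-183503242, plus strand: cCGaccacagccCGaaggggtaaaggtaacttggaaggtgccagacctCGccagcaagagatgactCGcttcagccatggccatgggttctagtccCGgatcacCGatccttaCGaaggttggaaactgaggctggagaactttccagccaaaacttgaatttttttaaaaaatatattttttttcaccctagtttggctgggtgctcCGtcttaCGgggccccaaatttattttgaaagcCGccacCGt
Gnas start C, chr3:183537089-183537338, plus strand: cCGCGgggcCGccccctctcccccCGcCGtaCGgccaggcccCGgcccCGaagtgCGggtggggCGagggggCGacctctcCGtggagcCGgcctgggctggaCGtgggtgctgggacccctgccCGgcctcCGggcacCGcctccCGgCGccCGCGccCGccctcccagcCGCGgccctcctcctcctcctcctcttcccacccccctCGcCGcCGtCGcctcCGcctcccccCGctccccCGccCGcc

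The *Mest* window holds 15 CG pairs and the *Plagl1* window 23. The 3 *Gnas* windows hold 16, 11 and 32 in the order printed, and 4.1% of the 33469 rat start windows hold at least as many as start C. The median of all windows was 5 CG pairs, and all 10 windows of the 8 listed genes with an entry were above it, from 7 (*Snrpn*) to 41 (*Dlk1*). The hexamer TGCCGC, read by the imprint-keeping protein Zfp57 when methylated, was searched on both strands. It was present in 3 of the 10 windows (*Plagl1*, *Snrpn* and *Dlk1*), against 8.9% of all windows. The hexamer itself holds a CG pair, and the share of all windows was not adjusted for their CG content. A match describes the letters only, and methylation was not measured on these arrays.

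None of the 7 genes passed the threshold of the study (a 1.5-fold difference or more, with unadjusted p under 0.05) by limma, where 4.27% of all features did (2.38% higher and 1.89% lower in LBW). At an unadjusted p under 0.05 without the fold criterion there was 1 (*Gnas*), compared to 12.4% of all features (5.63% higher and 6.73% lower in LBW). The methods' t-test (2-sided, which the study names for its data in general) gave 0 at either criterion, and 0 passed after Benjamini-Hochberg adjustment by limma, as was the case for all features (lowest adjusted p = 0.214). The log2 fold change (LBW minus ABW) of the 7 genes lay between -0.01 and 0.29, with a median of 0.09, and that of all features had a median of -0.02. Of the 7, 6 had the higher mean in LBW (44.4% of all features did). With the rows of a gene averaged, the 95% interval of every one of the 7 lay inside 1.5-fold in either direction. This held for 66.6% of all features and for 92.7% of the brightest 10%, where 5 of the 7 lie (below). Taken singly, a row of *Gnas* (0.19 to 1.24) and a row of *Cdkn1c* (-0.48 to 0.62) had intervals reaching past 1.5-fold. Groups did not overlap for 2 genes (*Plagl1* and *Gnas*, both higher in LBW), against 17.4% of all features in either direction (7.27% higher and 10.1% lower in LBW).

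**Figure D1:**
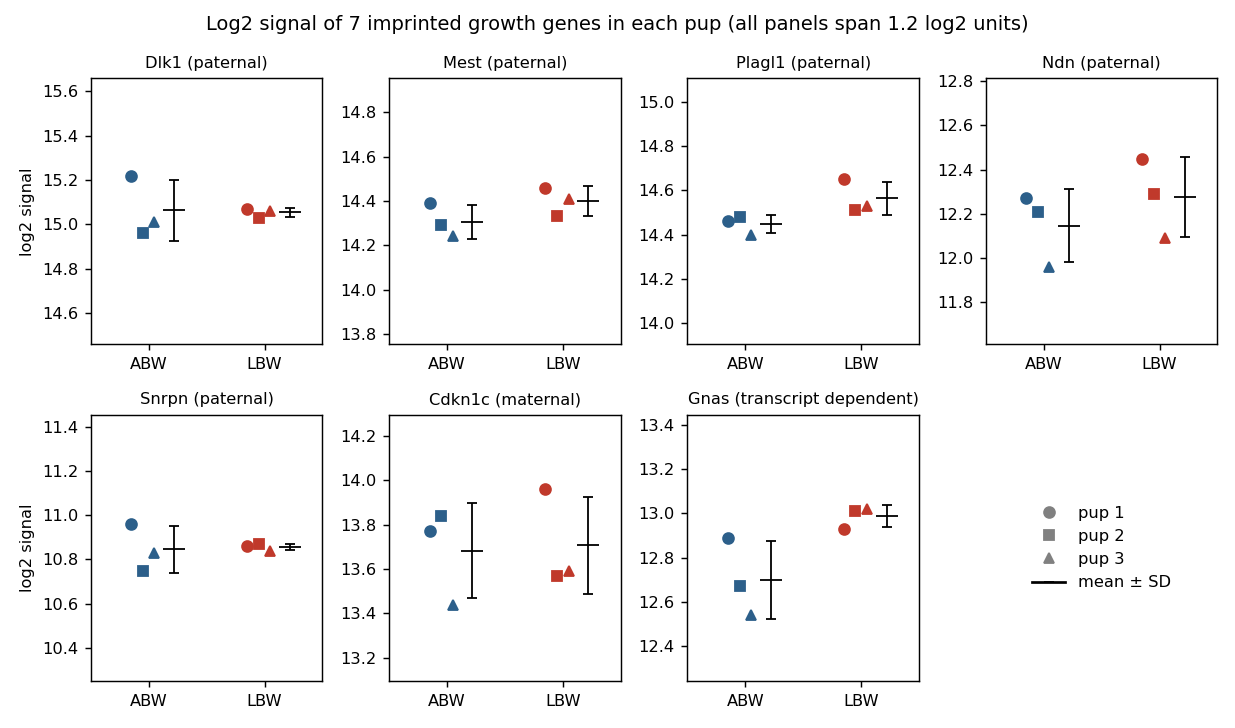
Log2 signal (vertical axis, every panel spanning the same range) of the 7 genes in each ABW (blue) and LBW (red) pup, with mean ± SD (n = 3). The groups overlap in 5 panels and are separate for Plagl1 and Gnas.

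Among the paternally expressed genes, *Dlk1* (NM_053744), which encodes a membrane protein related to the Notch ligands that holds back adipocyte differentiation, was at a log2 signal of 15.07, 15.03 and 15.06 in LBW 1, 2 and 3. It was at 15.22, 14.96 and 15.01 in ABW 1, 2 and 3. The LBW pups lay within the range of the ABW pups, and the log2 fold change of -0.01 (SE 0.10, limma adjusted p = 0.972) had a 95% interval from -0.25 to 0.22. A change of *Dlk1* beyond a fold of 0.843 or 1.17 is thus outside the interval.

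*Mest* (NM_001009617), a putative hydrolase of the endoplasmic reticulum whose level follows the expansion of fat tissue, was at 14.46, 14.33 and 14.41 in LBW and at 14.39, 14.29 and 14.24 in ABW pups. LBW 2 lay below ABW 1, so the groups overlapped. The log2 fold change was 0.09 (SE 0.09, 95% interval -0.12 to 0.31, limma adjusted p = 0.708).

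*Plagl1* (NM_012760), a zinc finger transcription factor that acts on other imprinted growth genes, was at 14.65, 14.51 and 14.53 in LBW and at 14.46, 14.48 and 14.40 in ABW pups. Every LBW pup was above every ABW pup (2-sided exact permutation p = 0.1, which is as low as 3 against 3 can go). The gap between LBW 2 and ABW 2, the nearest pair, was smaller than the SD within either group (0.08 in LBW and 0.04 in ABW). The log2 fold change of *Plagl1* was 0.12 (SE 0.08, 95% interval -0.09 to 0.32, limma adjusted p = 0.622), a fold of 1.08.

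*Ndn* (NM_001008558), necdin, a protein that restrains the cell cycle and favours differentiation in muscle and neurons, was at 12.45, 12.29 and 12.09 in LBW and at 12.27, 12.21 and 11.96 in ABW pups. The pups of a group spread by more (SD of 0.18 and 0.17, n = 3 each) than the groups differed (log2 fold change 0.13, SE 0.13, 95% interval -0.19 to 0.45, limma adjusted p = 0.737). *Snrpn* (NM_031117), a spliceosomal Sm protein best known from neurons, was at 10.86, 10.87 and 10.84 in LBW and at 10.96, 10.75 and 10.83 in ABW pups. Its LBW values all fell inside the ABW range, and the log2 fold change was 0.01 (SE 0.09, 95% interval -0.20 to 0.23, limma adjusted p = 0.965).

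*Cdkn1c*, an inhibitor of cyclin-dependent kinases (p57Kip2) and the only maternally expressed member with a row, had 2 rows, which were averaged. Their mean was 13.96, 13.57 and 13.59 in LBW and 13.77, 13.84 and 13.44 in ABW pups, so that LBW 1 was the highest pup and ABW 3 the lowest, with the others between them. The log2 fold change was 0.03 (SE 0.16, 95% interval -0.35 to 0.40, limma adjusted p = 0.965). Of the 7 genes *Cdkn1c* varied most within groups, with a pooled SD of 0.22 (0.16 is the median of all features). Taken separately, row NM_001033757 had a log2 fold change of -0.02 (SE 0.11, 95% interval -0.29 to 0.25). Row NM_001033758 had one of 0.07 (SE 0.23, 95% interval -0.48 to 0.62), and both rows overlapped between the groups.

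*Gnas* encodes the stimulatory G protein subunit that couples receptors to adenylyl cyclase, and its locus makes further proteins from other first exons. The Nesp form comes from the maternal copy, the extra-large form XLαs from the paternal copy, and the main form from both in most tissues. The mean of its 3 rows was 12.93, 13.01 and 13.02 in LBW and 12.89, 12.67 and 12.54 in ABW pups. All LBW pups were above all ABW pups (2-sided exact permutation p = 0.1), with ABW 1 close to LBW 1. The log2 fold change was 0.29 (SE 0.11, 95% interval 0.02 to 0.55, unadjusted p = 0.039, limma adjusted p = 0.377), a fold of 1.22. Without ABW 3 it was 0.21 and without ABW 1 it was 0.38, and of the 6 fits that left out a pup only the last had an unadjusted p under 0.05 (0.0111 by limma). With all pups, the unadjusted limma p was 0.055 after median centring and 0.0524 without the dimmest 25% of features. It was 0.0716 with the replicate number as a block and 0.647 in the brightest row alone. The methods' t-test gave 0.0527. The limma p stayed under 0.05 with quantile normalization (0.0399), an intensity trend (0.0193), robust variance (0.04) and array weights (0.0319).

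The difference of *Gnas* did not come evenly from its rows, which are described separately after their values were seen. Row NM_001024823 was at 11.78, 11.77 and 12.24 in LBW and at 11.59, 11.18 and 10.87 in ABW pups. It was higher in every LBW pup, with a log2 fold change of 0.71 (SE 0.22, 95% interval 0.19 to 1.24, unadjusted p = 0.015, limma adjusted p = 0.31). This row passed the threshold of the study, as did 4.28% of rows tested singly (2.38% higher in LBW). It did not pass without LBW 3 (0.56), without ABW 3 (0.54) or by the methods' t-test (unadjusted p = 0.0518). Row NM_019132 was at 12.48, 12.79 and 12.31 in LBW and at 12.45, 12.30 and 12.27 in ABW pups, where only LBW 2 stood clear of the others. Its log2 fold change was 0.19 (SE 0.14), which was 0.05 without LBW 2 and 0.29 without LBW 3. Row NM_021845 was at 14.53, 14.46 and 14.51 in LBW and at 14.61, 14.54 and 14.47 in ABW pups, with overlapping groups and a log2 fold change of -0.04 (SE 0.08, 95% interval -0.24 to 0.16).

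Within each pup, the log2 difference between NM_001024823 and NM_021845 was -2.75, -2.69 and -2.27 in LBW and -3.02, -3.36 and -3.59 in ABW muscle. The groups differed by 0.75 without overlap (2-sided exact permutation p = 0.1, adjusted p = 0.3 over the 3 pairs of rows, which this design cannot bring under 0.1). NM_001024823 against NM_019132 differed by 0.53 (exact p = 0.2) and NM_019132 against NM_021845 by 0.23 (exact p = 0.3). The table used for naming places the 3 rows and the 3 starts printed above in the gene *Gnas* without saying which row reads which start, so the active parental copy of each row is not known here.

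**Figure D2:**
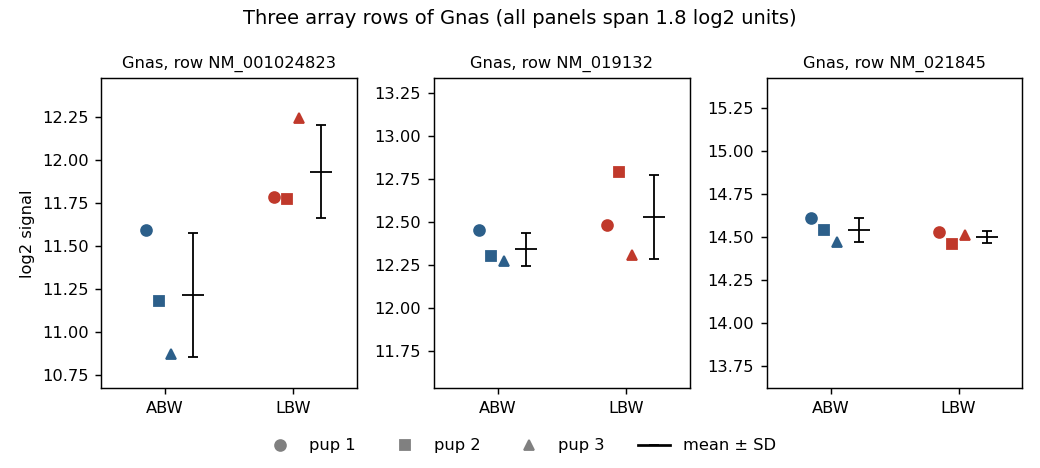
Log2 signal (vertical axis, same span in each panel) of the 3 array rows of Gnas in ABW (blue) and LBW (red) pups, with mean ± SD (n = 3). Row NM_001024823 lies higher in all LBW pups, whereas the LBW and ABW values of the other rows overlap.

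Features of different signal on the array passed the threshold at different rates. *Dlk1*, *Mest*, *Plagl1*, *Cdkn1c* and *Gnas* are among the brightest 10% of features (mean log2 signal of 12.48 and above), *Ndn* is between percentiles 75 and 90 and *Snrpn* between 50 and 75. In the brightest class 0.114% of features passed the threshold of the study, with a median absolute log2 fold change of 0.08 and a 95% interval within 1.5-fold for 92.7% of features. Between percentiles 50 and 75, 7.48% passed, and the median absolute change was 0.19. The 5 brightest members thus lie in a class where few features passed. *Dlk1* had a mean of 15.06, and the highest single value on any array was 15.49. Whether signals near this upper end are compressed was not tested, since the values hold no spot-level data.

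**Figure D3:**
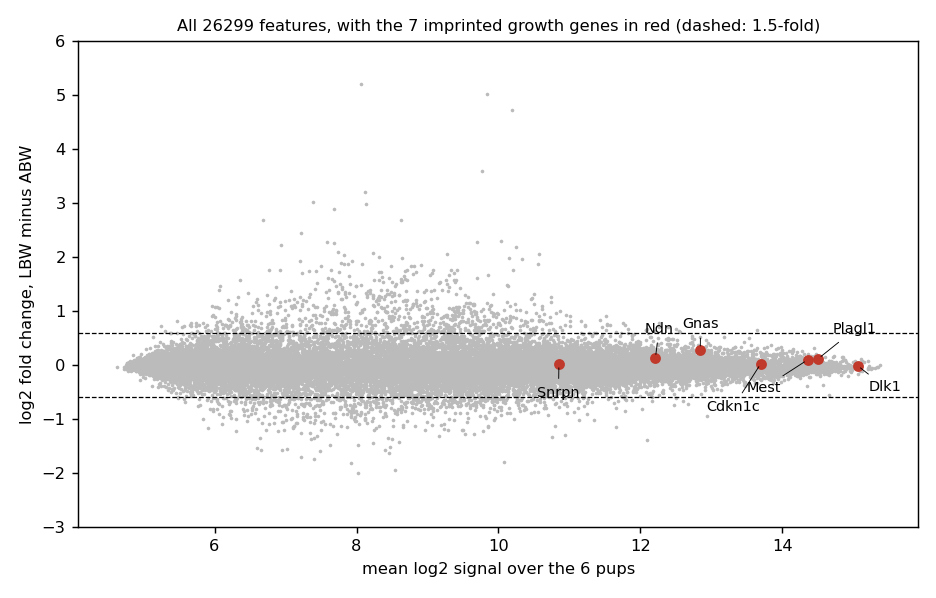
Log2 fold change (LBW minus ABW, vertical axis) against mean log2 signal over the 6 pups (horizontal axis) for all 26299 features (grey) and the 7 imprinted growth genes (red), with dashed lines at 1.5-fold. Fold changes narrow toward the bright end, where 5 of the 7 genes lie.

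Paternally and maternally expressed genes were set side by side without a test, since *Cdkn1c* alone stood for the maternal side. The median log2 fold change of the 5 paternally expressed genes was 0.09, against 0.03 for *Cdkn1c*, a difference of 0.07 before rounding of its parts. In single pups the median of the 5 minus *Cdkn1c*, each relative to its ABW mean, was -0.12, 0.14 and 0.09 in LBW and 0.02, -0.17 and 0.19 in ABW. The pups of both groups thus lay on either side of 0, with a pooled SD of 0.16. Counting *Gnas* with the maternal genes gave -0.06 and counting it with the paternal genes gave 0.08.

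Other imprinted genes were taken from a list of 37, of which 17 had a row. Here, as for the listed growth genes, the active copy was assigned by gene and not measured. Some of these genes may not be imprinted in newborn muscle. None of the 17 passed the threshold of the study by limma or by the methods' t-test. With a pup left out, *Kcnq1* passed by limma without LBW 3 (0.59) and without ABW 1 (0.73). At an unadjusted p under 0.05 limma gave 3 (the maternally expressed *Kcnq1*, *Asb4* and *Ppp1r9a*, all higher in LBW; 5.63% of all features were) and the methods' t-test 2 (*Igf2r* and *Ppp1r9a*). Of the 7 paternally expressed genes, 2 had the higher mean in LBW and 5 the lower, with a median log2 fold change of -0.14, which was -0.03 without ABW 2 and -0.07 without LBW 1. Of the 10 maternally expressed genes, 6 were higher and 4 lower, with a median of 0.05, which was 0.01 without LBW 2, 0.02 without ABW 3, 0.08 without LBW 1 or ABW 2 and 0.10 without LBW 3. These counts and medians include genes of low signal, namely *Ascl2*, *Slc22a2*, *Slc22a3* and *Calcr* (5.97 to 7.11 over all pups) on the maternal side and *Nap1l5* and *Dio3* (6.01 to 7.13) on the paternal side, where the dimmest 25% of features end at 6.21. Groups did not overlap for 6 of the 17 (3 higher and 3 lower in LBW), against 17.4% of all features in either direction (7.27% higher and 10.1% lower). With the listed growth genes added, the median was 0.00 over 12 paternally expressed and 0.04 over 11 maternally expressed genes.

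*Igf2* (NM_031511), the insulin-like growth factor that drives fetal growth, was at 15.12, 14.97 and 15.10 in LBW and at 15.01, 15.01 and 14.96 in ABW pups. LBW 2 lay within the ABW range, and the log2 fold change was 0.07 (95% interval -0.13 to 0.27). *Igf2r*, the receptor that removes Igf2 and is maternally expressed, was at 13.38, 13.48 and 13.39 in LBW and at 13.24, 13.32 and 13.25 in ABW pups. All LBW pups were above all ABW pups, by 0.15 on average (limma adjusted p = 0.507). *Nnat*, a small membrane protein of the endoplasmic reticulum, was set apart by LBW 3 at 12.58, against 13.57 and 13.43 in LBW 1 and 2 and 13.18 to 13.54 in ABW pups. *Sgce*, the epsilon subunit of the sarcoglycan complex, had a log2 fold change of -0.18 (SE 0.10).

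*Asb4*, an adaptor for ubiquitin ligases, was at 11.65, 11.77 and 11.81 in LBW and at 11.55, 11.44 and 11.11 in ABW pups. The groups were separate, and the log2 fold change was 0.38 (SE 0.13, limma adjusted p = 0.348). *Ppp1r9a*, neurabin, an actin-binding scaffold, was also separate between the groups, with a log2 fold change of 0.28 (SE 0.11, limma adjusted p = 0.377). *Kcnq1*, a potassium channel subunit, had the largest difference of the list (0.52, SE 0.20, limma adjusted p = 0.375), with ABW 1 at 9.84 above LBW 3 at 9.79. *Snurf*, which is read from the same bicistronic transcript as *Snrpn*, was at 12.74, 12.64 and 12.62 in LBW and at 13.04, 12.77 and 12.83 in ABW pups. These values do not overlap (log2 fold change -0.22, SE 0.10, limma adjusted p = 0.456), while those of *Snrpn* do. As both come from 1 transcript, the rows may overlap in what they measure.

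**Figure D4:**
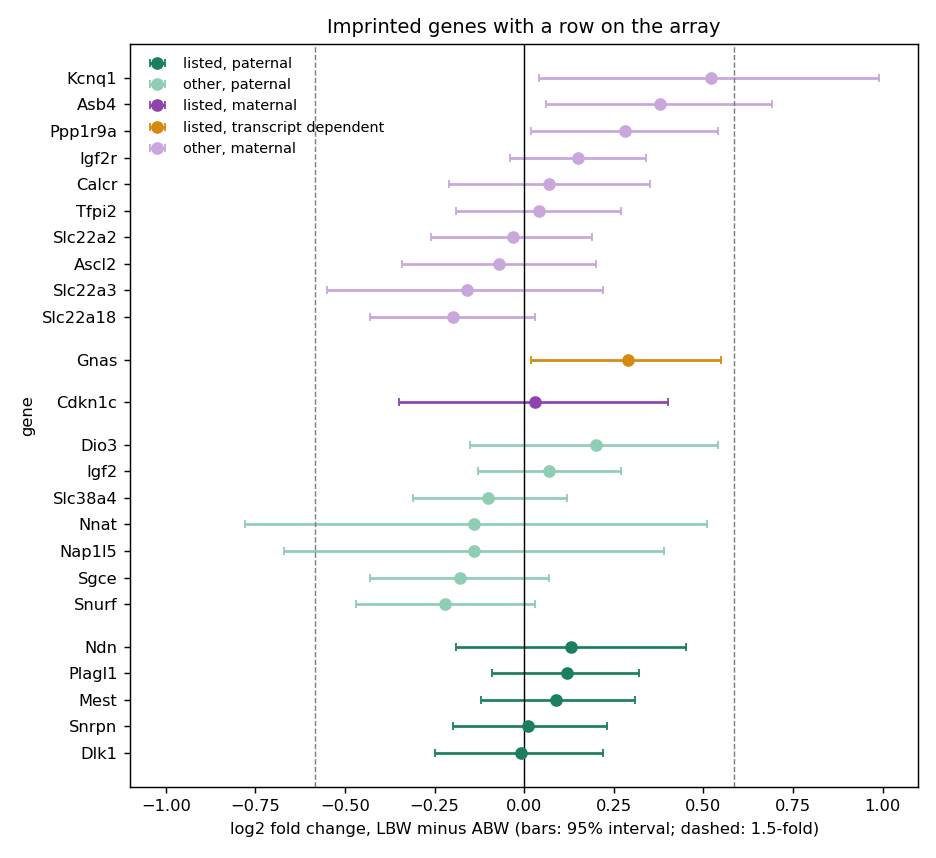
Log2 fold change (LBW minus ABW, horizontal axis) with 95% interval for the 24 imprinted genes with a row. Colours give the copy assigned as active, which was not measured, and whether the gene is among the 9 listed growth genes. Every interval of the 7 listed genes with a row lies between the dashed 1.5-fold lines, and those of Kcnq1, Asb4, Nnat and Nap1l5 reach past them.

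The proteins that set and keep imprints were read from a list of 15, of which 7 had a row. None passed the threshold of the study by limma or by the methods' t-test. *Dnmt3a*, which methylates DNA anew, was the 1 gene with an unadjusted p under 0.05 by either (12.4% of all features by limma, 6.73% lower in LBW). It was at 12.59, 12.52 and 12.48 in LBW and at 12.68, 12.85 and 12.83 in ABW pups, without overlap and lower in LBW by 0.26 (SE 0.09, limma adjusted p = 0.34). Groups did not overlap for this 1 gene of the 7, against 17.4% of all features (10.1% lower in LBW). *Dnmt1*, the enzyme that copies methylation at cell division, was at 12.20, 11.80 and 12.39 in LBW and at 12.00, 12.09 and 12.13 in ABW pups. LBW 2 was below and the other LBW pups above the ABW range (log2 fold change 0.06, 95% interval -0.32 to 0.44). *Ctcf*, the insulator protein of the *Igf2* locus, had a log2 fold change of 0.01 (95% interval -0.18 to 0.19), and *Zfp57* one of -0.08 (SE 0.19).

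Partners of the listed genes were read from 5 further lists, none of whose measured genes was called at the threshold of the study by limma or by the methods' t-test. *Grb10* itself was not measured, but 8 of 11 genes from a list of the insulin and IGF receptor branch on which it acts and of its related adaptors (*Grb7* and *Grb14*) were, and all 8 had the higher mean in LBW (median log2 fold change 0.21; 44.4% of all features were higher). *Akt2*, *Akt1* and *Irs1*, kinases and an adaptor below these receptors, had 0.00, 0.19 and 0.21. *Igf1r*, named after its values were seen, was at 12.39, 12.32 and 12.46 in LBW and at 11.93, 11.83 and 11.84 in ABW pups. The difference of 0.52 (SE 0.08, unadjusted p = 0.000608, limma adjusted p = 0.214) exceeded the spread within either group (SD 0.07 and 0.05), and the fold of 1.44 is under the fold criterion.

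Around *Cdkn1c*, 8 of 10 cyclins, kinases and related inhibitors were measured, with a median log2 fold change of 0.02. Groups were separate for 4 of the 8 (3 higher and 1 lower in LBW), against 17.4% of all features. *Cdkn1a* (0.20, groups separate), *Cdk4* (0.02) and *Cdkn1b* (-0.03) had the highest signals, and *Ccnd1* (0.29, SE 0.12, groups separate) and *Ccnd3* (0.51, SE 0.21, groups separate) had an unadjusted p under 0.05 by limma, where the methods' t-test gave *Cdkn1a* only (12.4% of all features by limma). *Ccna2*, cyclin A2, was the separate gene that was lower in LBW (-0.20). Around *Gnas*, 10 of 15 receptors, cyclases and kinase subunits were measured with a median of 0.04. *Prkar1a* (0.13), *Prkar2a* (0.04) and *Adcy6* (-0.21, groups separate) were the brightest, and the cyclase *Adcy2* had an unadjusted p under 0.05 by both tests (0.40, SE 0.11, limma adjusted p = 0.291, groups separate). Of the Notch pathway, in which *Dlk1* is a non-canonical ligand, 6 of 12 genes were measured, with *Notch2* at 0.09, *Jag1* at -0.31 and *Numb* at -0.28, and 0 had an unadjusted p under 0.05 by either test. None of the other Sm protein genes had a matched row. Of that list of 9 spliceosome genes 1 was measured, *Snrpa*, a protein of the U1 particle outside the Sm ring, with a log2 fold change of 0.13.

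For the 2 members with separate groups, the named genes with the most similar pattern were found by the root mean square difference of the log2 deviations over the 6 pups, among 9626 others. Nearest to *Gnas* were *Tnni1* (0.030), slow skeletal troponin I, *Csrp3* (0.035), the muscle LIM protein, and *Cdh15* (0.035), M-cadherin. The pattern matched for *Gnas* is the mean of its rows, which did not move alike, so it need not be that of any single row. Nearest to *Plagl1* were *Lrrc3* (0.026), *Or8j3* (0.027) and *Or2a25* (0.029). The last 2 are olfactory receptors with signals of 5.09 to 5.42, near the lowest values of the arrays, so a pattern as small as that of *Plagl1* is also met among dim features.

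The tissue label was checked on markers. Of 15 skeletal muscle genes, 10 had a row, none passed the threshold of the study by limma (0 at an unadjusted p under 0.05, and 1 by the methods' t-test, *Des*), and the median log2 fold change was 0.03. *Acta1*, skeletal actin and the brightest, was at 15.15 to 15.41 over the 6 pups. The summed linear signal of the 10 genes ran from 233200 (LBW 2) to 252500 (LBW 3). In whole muscle, fewer cells of a type and less RNA per cell cannot be told apart.

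Markers of other tissues differed between the pups. Of all features, 4.27% were called at the threshold of the study by limma (2.38% higher and 1.89% lower in LBW). Bone genes (8 measured, brightest *Phex*) had 4 calls at this threshold by limma, all higher in LBW (2 by the methods' t-test). Their summed linear signal was 26700, 3312 and 37730 in LBW 1, 2 and 3, against 1919, 2066 and 2414 in ABW pups. Without LBW 2 there were 8 bone calls and without LBW 1 there were 2. Cartilage genes (6 measured, brightest *Col2a1*) summed to 20050, 12100 and 25400 in LBW and to 14290, 11470 and 14250 in ABW pups, with 1 call by limma and 0 by the methods' t-test (*Acan*, 2.07), which became 4 without LBW 2 and 0 without any other pup. Adipocyte genes (9 measured, brightest *Fabp4*) all had lower means in LBW, where 44.4% of all features had the higher mean. By limma 2 were called, *Pparg* (-1.20) and *Lep* (-1.57), against 1.89% of all features called lower in LBW. The methods' t-test called 0. The sums of the 9 adipocyte genes were 54400, 56650 and 41760 in LBW and 52910, 78010 and 73560 in ABW pups. Without ABW 1 there were 4 adipocyte calls, and 1 without LBW 1, LBW 3, ABW 2 or ABW 3. Of 12 Schwann cell and neuron genes (brightest *Pmp22*), 1 was called (*Tubb3*, -0.61), and fibroblast genes (4 measured, brightest *Dcn*) gave 0 calls and 0 at an unadjusted p under 0.05.

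In LBW 3, the pup with the highest bone signal, the 7 imprinted growth genes lay 0.05 above the ABW mean. Relative to the ABW mean, their mean was 0.17, 0.06 and 0.05 in LBW 1, 2 and 3, and 0.11, 0.00 and -0.11 in ABW pups. The bone list was at 2.90, 0.30 and 3.81 in the same LBW pups. For the *Gnas* row NM_001024823, LBW 1 and LBW 2 had nearly equal signals (11.78 and 11.77) at bone sums of 26700 and 3312, and LBW 3, with the highest bone sum (37730), had the highest signal (12.24). The log2 fold change of the row was 0.80 without LBW 2 and 0.56 without LBW 3. Within ABW, the row was at 11.59 in ABW 1, where adipocyte genes summed to 52910, and at 11.18 and 10.87 in ABW 2 and 3, where they summed to 78010 and 73560. The part of bone and adipocyte content in the values of this row was not tested.

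**Figure D5:**
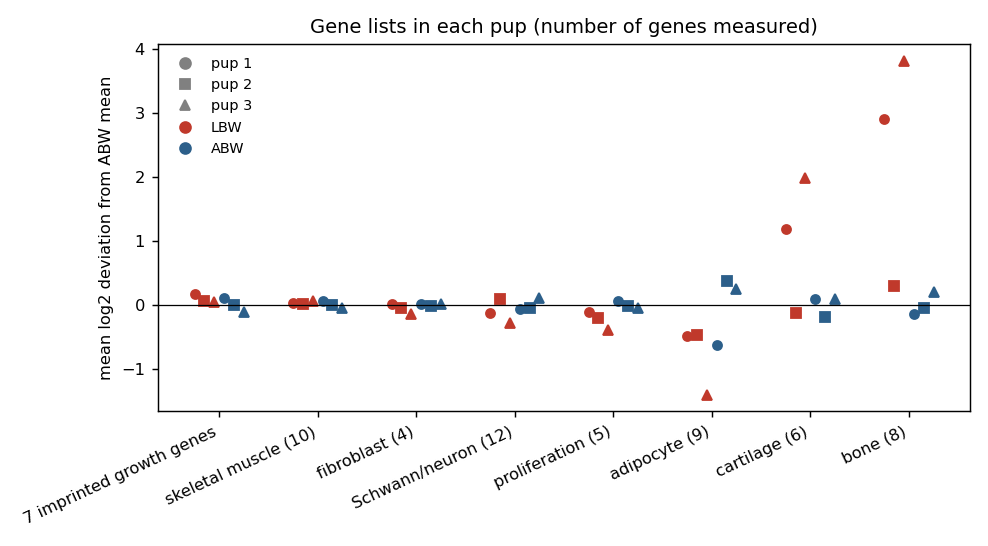
Mean log2 deviation from the ABW mean (vertical axis) of the 7 imprinted growth genes and of 7 marker lists in each LBW (red) and ABW (blue) pup. Bone genes are 2.90 and 3.81 above the ABW mean in LBW 1 and 3, while the imprinted growth genes stay within 0.17 of it in all pups.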

How the data were processed

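RNA from each of the 6 pups was hybridized to its own NimbleGen array. The authors deposited normalized log2 values, made in R with Bioconductor packages (26419 rows). RMA is named in the submitters' processing notes without its role, and the background correction is not given in the sources used here. The log base was checked against 80 levels printed in the supplement, all matched within 0.006. Array medians were 8.695 to 8.757. Detection calls were not used here, and precision is limited by having 6 arrays.

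Of the rows, 9747 (36.9%) were named by accession through a RefSeq table (GRCr8), giving 9627 symbols, and rows of a symbol were averaged. All features were fitted with lmFit and eBayes (limma 3.58.1, R 4.3.3), 2-sided, adjusted by Benjamini-Hochberg, after the code was tested on simulated data. The methods' t-test is Student's test with equal variances on the same values. Lists and tests, like the members, were chosen with earlier results of these data known. The text names every member, the 3 brightest genes of each related list and the brightest marker of each tissue; *Kcnq1*, *Snurf* and all other genes were chosen after their values were seen. Alternatives were the replicate block, leaving out each pup, quantile normalization, median centring, leaving out the dimmest 25% of features, an intensity trend, robust variance, array weights, the methods' t-test, single rows, a fold of 2 and the allele assigned to *Gnas*. The array was designed on RGSC3.4, so no array coordinates are given.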

Additional observations from a re-analysis of the deposited data

How the results depend on the processing

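The number of the 7 imprinted growth genes past the threshold of the study was 0 in every alternative, also with each pup left out. A fold of 2 could give no other count, and the alternative of single rows lets the brightest row stand for a gene. Row NM_001024823 of *Gnas*, tested by itself, did pass the threshold of the study. Over all features the count of 1124 was 584 by the methods' t-test and 335 at a fold change of at least 2, and it ran from 798 (without LBW 1) to 1546 (without LBW 2) with a pup left out. After adjustment it ran from 0 to 125, with 125 only without LBW 2, and the cause was not tested. The paternal minus maternal difference lay between -0.02 and 0.14 with a pup left out and between -0.06 and 0.12 otherwise, within the spread between pups. *Mest*, *Plagl1* and *Ndn* kept a positive log2 fold change in all 15 alternatives, not all of which could change it. The replicate block, the filter on dim features, the intensity trend, robust variance, the methods' t-test and single rows leave these estimates as they are. With a pup left out, *Mest* ran from 0.06 to 0.14, *Plagl1* from 0.07 (without LBW 1) to 0.14, and *Ndn* from 0.04 (without LBW 1 or ABW 3) to 0.22 (without LBW 3). The sign of the 3 values nearest to 0 turned. With a pup left out, *Dlk1* ran from -0.06 to 0.06, *Cdkn1c* from -0.10 to 0.10 and *Snrpn* from -0.04 to 0.07. *Dlk1* was 0.06 without ABW 1, 0.04 after quantile normalization and 0.01 with array weights. *Cdkn1c* was -0.10 without LBW 1 and without ABW 3, and -0.02 in its brightest row alone. *Snrpn* was -0.04 without ABW 2. *Gnas* was -0.04 when its brightest row stood for the gene. Among single rows, added after seeing the data, NM_001033757 of *Cdkn1c* was 0.06 without LBW 3, 0.00 after quantile normalization and 0.01 with array weights, with -0.11 to 0.06 over the pups left out, and NM_001033758 ran from -0.13 to 0.21, being -0.09 without LBW 1 and -0.13 without ABW 3. Row NM_001024823 of *Gnas* was between 0.54 and 0.90 with a pup left out, always above 0. The lists of other imprinted genes and the marker counts were also rerun without each pup, as alternatives added after seeing the data.

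The replicate numbers showed no strong pairing of the pups (correlations of same-numbered deviations 0.087, 0.104 and 0.055). A weak pairing is not excluded by these values. With the number as a replicate block, 1230 features passed the threshold of the study, 0 after adjustment, and 0 of the 7 genes, and *Gnas* had 0.29 with an unadjusted p of 0.0716 by limma.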

Other observations

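Of 10 markers of dividing cells 5 had a row, and none passed the threshold of the study by limma or by the methods' t-test. The mean was lower in LBW for 3 of them and higher for 2, where 44.4% of all features were higher. *Ccnb1*, cyclin B1, was at 11.42, 11.45 and 11.45 in LBW and at 12.14, 11.91 and 12.01 in ABW pups, a log2 fold change of -0.58 (SE 0.09, limma adjusted p = 0.214), and *Cdk1*, its kinase, had -0.38 (SE 0.15, limma adjusted p = 0.391). The groups were separate for both, 2 of the 5, against 17.4% of all features (10.1% lower in LBW). Both had an unadjusted p under 0.05 by limma, where 6.73% of all features did and were lower in LBW, and *Ccnb1* alone by the methods' t-test. *Rrm2*, a subunit of ribonucleotide reductase, had -0.28 with overlapping groups, *Ccnb2*, cyclin B2, had 0.01, and *Pcna*, the replication clamp and the brightest of the 5, had 0.06. Endothelial genes (4 measured) had a median of -0.20 with 0 calls and 2 at an unadjusted p under 0.05 by either test (*Esam* and *Emcn*, both lower in LBW, as were 6.73% of all features by limma). Erythroid genes (3 measured, *Hbb* the brightest) had a median of -0.22, and muscle progenitor genes (5 measured, *Itga7* the brightest) one of 0.02, each with 0 calls by limma and by the methods' t-test. At an unadjusted p under 0.05 the erythroid list gave 0 by either test. The progenitor list gave 1 by limma (*Cdh15*, higher in LBW, as were 5.63% of all features) and 0 by the methods' t-test.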
